A study of Mus musculus with 4 samples.

Results

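The genes of mitochondrial oxidative phosphorylation were compared between BCR-ABL1-transformed mouse cell lines that carry altered cell-cycle kinases and wild-type lines made the same way. Members were the genes on the array whose symbols start with Nduf, Sdha, Sdhb, Sdhc, Sdhd, Uqcr, Cyc1, Cox4 to Cox8 or Atp5, each read from its brightest probe. This gave 98 genes of 20972 with a RefSeq symbol, and 94 of them passed a filter on dim signals and were tested among 20043 genes in all. The 94 were 37 subunits of complex I, 4 of complex II, 9 of complex III, 15 of complex IV and 17 of complex V, with 8 complex I assembly factors (Ndufaf genes) and 4 complex II assembly factors (Sdhaf genes). The other 4 genes, Ndufa4l2, Cox7b2, Cox8b and Cox8c, were not well above background in any channel of any array.

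All lines came from fetal liver on a mixed C57BL/6J x CD-1 background, were transduced with the p185 form of the BCR-ABL1 oncogene, and were taken as spontaneously immortal, transformed clones. The R/R lines were homozygous for Cdk4 R24C and Cdk6 R31C, and the control lines were wild type (WT) at both genes. These substitutions are known for making the kinases resistant to INK4 inhibitors, and p185 is the BCR-ABL1 form typical of acute lymphoblastic leukaemia. Each sample was an asynchronous culture without any drug named in the labels. The 4 two-colour arrays lay on 1 slide and each set an R/R RNA against the WT pool. R/R clones 1, 2 and 3 were in the Cy5 channel, and an R/R pool was in the Cy3 channel of a dye-swapped array. Every value is the log2 ratio of R/R over WT, so 0 is no difference, and the dye-swapped array was turned to the same direction.

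The WT sample was a pool on every array, so the spread between WT lines does not enter any test. The labels do not say which lines went into either pool, and the R/R pool may hold RNA of the same clones. The identifiers of clones 1 and 2 share their first part, so the 3 clones may not be equally independent. The main model, described next, fits the single pool array exactly, so its SEs and p-values hold no spread from that array. They draw on the spread between the 3 R/R clones, both of the gene itself and, by moderation, of all genes tested. A gap between the clones and the pool does not enter the SEs or p-values. The fitted value of a gene is the average of the clone mean and the pool value, from a limma model with a dye term and 2 residual degrees of freedom, and a gene was called at an adjusted p under 0.05 over all 20043 genes.

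Between 42.8% and 53.4% of spots were well above background in the R/R channels and WT channels, and no spot was saturated. All 94 members tested were well above background in all 8 channels. The 10 B-lineage markers listed were also well above background in every channel, whereas the 4 hepatocyte markers were above it in none. Of 5 myeloid markers, 3 were above background in every R/R channel and 4 in every WT channel, and 5 of 6 erythroid markers were above it in no channel. The other erythroid marker, the embryonic globin gene Hbb-bh1, was above background in all channels and called lower in R/R (-1.81, adjusted p = 0.011). The T-cell gene Cd3e (0.13) and the stromal gene Col1a2 (-0.09) were also above background in all channels and were not called. The part of other cell types in the values below was not tested.

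Oxidative phosphorylation couples electron transport in the inner mitochondrial membrane to ATP synthesis. Complex I takes electrons from NADH and complex II takes them from succinate. Complex III passes them through cytochrome c to complex IV, which reduces oxygen, and complex V uses the resulting proton gradient to make ATP. A few core subunits are encoded in mitochondrial DNA and the rest are nuclear genes scattered over the chromosomes. The mitochondrially encoded subunits were not analysed here, because no probe was matched to them by name.

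Most oxidative phosphorylation genes lay slightly above WT, and 3 genes were called. Ndufs6, Ndufaf2 and Cox7c rose in the R/R samples, and no member was called lower. Against 3 of 94 members, 0.15% of all genes tested were called higher, and 0.374% were called lower against 0 of 94. At an unadjusted p under 0.05, limma placed 33 members higher and 4 lower, against 7.27% and 8.1% of all genes tested. The median log2 ratio over the 94 members was 0.16, beside -0.02 over all genes tested.

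The shift was small and widely shared among members. Of the 94 genes, 81 had a fitted value above 0, whereas 46.4% of all genes tested did. With the clones alone, without the pool array and the dye term, 72 of the 94 were above 0. All genes tested had a median of -0.005 in that fit. On all 4 arrays 45 members were above 0, against 14.6% of all genes, and 6 were below 0, against 16.2%. Those 6 were Ndufv1, Ndufv3, Sdhc, Cox7a2l, Cox6a2 and Atp5a1. The median over the 82 subunits was 0.11 in clone 1, 0.07 in clone 2, 0.22 in clone 3 and 0.20 in the pool. All 4 samples therefore had a subunit median above 0, and clone 2 had the lowest.

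Most members are bright on the array, and bright genes as a class did not show this shift. Of the 94, 78 fell in the brightest of 5 equal classes of genes tested. The 3931 other genes of that class had a median of 0.00, and 18.8% of them were above 0 on all 4 arrays. The 78 members in it had a median of 0.18, with 66 above 0.

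The 5 complexes had similar medians. Fitted medians were 0.24 for complex II, 0.22 for complex III, 0.17 for complex I, 0.16 for complex V and 0.14 for complex IV. Subunits with a fitted value above 0 numbered 32 of 37 in complex I, 3 of 4 in complex II, 7 of 9 in complex III, 13 of 15 in complex IV and 14 of 17 in complex V. By the fitted value every complex thus lay mostly above 0. With the clones alone, 61 of all 82 subunits were above 0, beside 69 in the main fit. In complex II the clone means of Sdhb and Sdha were 0.58 and 0.32, and those of Sdhd and Sdhc were -0.04 and -0.08. The complex IV median was 0.046 with the clones alone. The SD of the complex median between the 3 clones was 0.12 for complex I, 0.02 for complex II, 0.12 for complex III, 0.05 for complex IV and 0.08 for complex V. Neighbours in this order of fitted medians differed by less than the clone SD of at least 1 complex of each pair. The order also depended on the sample. The complex II median ran from 0.10 to 0.15 in the clones and was 0.33 in the pool, and the complex IV median ran from 0.04 to 0.13 in the clones and was 0.23 in the pool. The pool was the only sample with R/R RNA in Cy3, so pool and dye cannot be told apart.

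**Figure D1:**
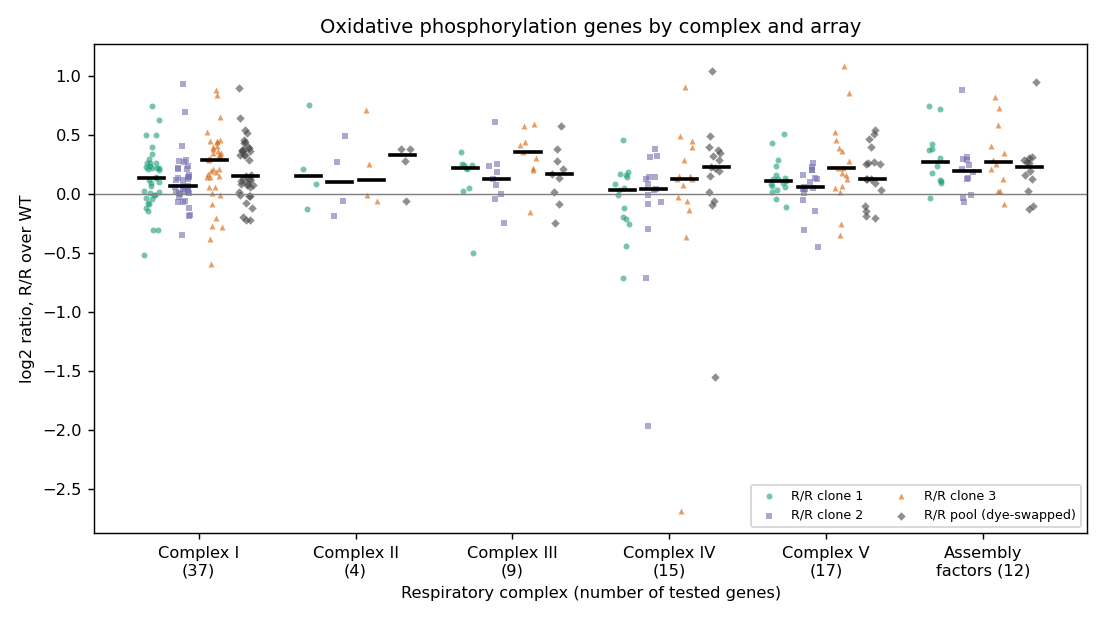
Log2 ratio of R/R over WT (vertical axis) for the tested subunits of complexes I to V and for the assembly factors (horizontal axis). Points are single genes in each of the 4 samples and bars are the median of a complex in that sample. All medians lie above 0, and the lowest points, down to -2.69, are those of Cox6a2 in complex IV.

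Complex I is the largest complex and is built from 7 nuclear core subunits, which carry the flavin and iron-sulfur clusters, and many accessory subunits around them. The division into core and accessory genes was made after the values were seen. The 7 core genes tested had a median of 0.10 and the 30 accessory genes a median of 0.21. By sample, the core median was 0.10, 0.06 and 0.19 in clones 1, 2 and 3 and 0.02 in the pool, and the accessory median was 0.14, 0.07 and 0.29 in the clones and 0.33 in the pool. The gap between them was widest in the pool.

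Ndufs6, a zinc-binding accessory subunit of the arm that reaches into the matrix, showed the highest value of all members. Its log2 ratio was 0.75, 0.93 and 0.88 in clones 1, 2 and 3 and 0.90 in the pool. The 4 samples were all high and close together. The fitted value was 0.88 ± 0.09 (SE), a fold of 1.83, with an adjusted p of 0.041 in limma. Ndufaf2, an assembly factor that acts late in the building of complex I, was close behind. Its values were 0.75, 0.88 and 0.73 in the clones and 0.95 in the pool, with a fitted value of 0.87 ± 0.09 (SE), a fold of 1.82, and an adjusted p of 0.041.

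Cox7c, a small nuclear subunit of complex IV, was the other called gene. Its log2 ratio was 0.45, 0.38 and 0.49 in clones 1, 2 and 3, and 1.04 in the pool. On this probe, the gene's brightest, the pool was well above every clone. The fitted value was 0.74 ± 0.09 (SE), a fold of 1.67, with an adjusted p of 0.048. The gap between the clones and the pool does not enter this SE. Without the pool array and the dye term, the clones alone gave 0.44 with an adjusted p of 0.103, and the call was lost. The gene's other bright probe showed no such split, with 0.67, 1.15 and 0.91 in the clones and 0.93 in the pool (fitted 0.92), and a dim probe gave 0.30.

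These calls rest on small margins. Leaving out clone 1 gave adjusted p-values of 0.092 for Ndufs6, 0.101 for Ndufaf2 and 0.143 for Cox7c. Without clone 2 they were 0.066, 0.063 and 0.075, so none of the 3 was called when either clone was left out. No member was called higher with the scanner's own log ratios or with median centring, and with a normexp offset of 16 Ndufs6 (adjusted p = 0.051) and Cox7c (0.067) lost their calls. The log2 ratios themselves stayed between 0.71 and 0.91 for Ndufs6 and between 0.70 and 0.93 for Ndufaf2 over all alternatives tried.

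The promoter windows of the 3 called genes are shown with that of Cox6a1, a member that holds several of the motifs searched. Each window runs from 250 bases before to 50 bases after the annotated start in RefSeq (GRCm38.p6). All 4 genes lie on the minus strand, and sequences read 5′ to 3′ along the gene. The windows are chr13:73328433-73328732 for Ndufs6, chr13:108158576-108158875 for Ndufaf2, chr13:86046746-86047045 for Cox7c and chr5:115348909-115349208 for Cox6a1. Capitals mark matches to the motifs named after the sequences.
Ndufs6: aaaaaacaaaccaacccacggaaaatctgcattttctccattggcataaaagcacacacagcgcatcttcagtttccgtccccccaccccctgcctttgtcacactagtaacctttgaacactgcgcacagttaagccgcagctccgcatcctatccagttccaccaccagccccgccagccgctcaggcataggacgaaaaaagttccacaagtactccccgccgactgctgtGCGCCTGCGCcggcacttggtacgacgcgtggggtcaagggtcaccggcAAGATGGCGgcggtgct
Ndufaf2: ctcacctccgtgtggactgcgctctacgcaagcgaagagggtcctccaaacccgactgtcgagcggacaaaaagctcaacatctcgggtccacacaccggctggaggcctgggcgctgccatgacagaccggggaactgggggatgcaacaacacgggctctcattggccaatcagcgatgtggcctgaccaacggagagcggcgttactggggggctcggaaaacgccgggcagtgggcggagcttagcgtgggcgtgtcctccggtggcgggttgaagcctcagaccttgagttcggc
Cox7c: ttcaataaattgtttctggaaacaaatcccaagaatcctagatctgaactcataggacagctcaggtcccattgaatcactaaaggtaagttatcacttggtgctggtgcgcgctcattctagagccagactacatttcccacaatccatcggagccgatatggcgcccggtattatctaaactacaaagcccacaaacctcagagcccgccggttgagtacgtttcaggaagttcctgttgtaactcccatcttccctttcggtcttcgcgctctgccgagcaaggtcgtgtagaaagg
Cox6a1: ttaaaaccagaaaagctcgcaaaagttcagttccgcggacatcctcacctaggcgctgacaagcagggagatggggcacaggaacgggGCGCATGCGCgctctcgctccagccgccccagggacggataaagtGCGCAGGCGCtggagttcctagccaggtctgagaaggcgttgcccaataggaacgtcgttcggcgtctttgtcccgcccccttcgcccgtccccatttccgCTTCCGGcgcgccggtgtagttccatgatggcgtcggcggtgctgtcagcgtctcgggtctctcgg

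Motifs of factors that are textbook regulators of respiratory chain genes were searched on both strands. They were GCGC followed by AT and GCGC (NRF1, strict), GCGC followed by any 2 bases and GCGC (NRF1, relaxed, which includes the strict matches), CCGGAAG (the ETS factor GABP, also called NRF2), AAGATGGCG (YY1) and TCAAGGTCA (ERR). The Ndufs6 window held a relaxed NRF1 match at positions 235 to 244, counted from the 5′ end of the window, and a YY1 match at 284 to 292. In the Ndufaf2 and Cox7c windows no match to these letters was found. The Cox6a1 window held a strict NRF1 match at 89 to 98, a relaxed NRF1 match at 134 to 143 and an ETS match on the other strand at 235 to 241.

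Promoter windows were found for 80 of the 98 members. Of these, 23 (28.7%) held a relaxed NRF1 match, against 6.997% of the windows of 27025 genes, and 7 held a strict one (8.75% against 1.07%). The ETS motif was in 22 (27.5% against 9.93%), the YY1 motif in 8 (10.0% against 1.64%) and the ERR motif in 2 (2.50% against 0.466%). In all, 45 members (56.2%) held at least 1 of them, against 17.0% of all genes. Tested members with a relaxed NRF1 match had a median log2 ratio of 0.23 and those without it 0.17. With and without the ETS motif the medians were 0.19 and 0.18, and with and without the YY1 motif they were 0.34, over 8 genes, and 0.16. Those 8 include Ndufs6 and Ndufs4 on chromosome 13 and Atp5j2 on chromosome 5, chromosomes whose other genes were also shifted, as described below. The part of chromosome position in these medians was not tested. The 27025 genes were all those with a window, and they were not matched to the members for gene type or GC content. These are descriptions of letters in a window and not of binding.

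Other accessory subunits of complex I were above WT without passing the test. Ndufa5, a subunit of the arm that passes electrons to ubiquinone, had log2 ratios of 0.63, 0.40 and 0.52 in the clones and 0.37 in the pool (fitted 0.44 ± 0.09 SE, limma adjusted p = 0.141). The 4 samples were all above 0, and the gene's other probe gave 0.47. Ndufs4, an accessory subunit that is mutated in inherited Leigh syndrome, had 0.20, 0.69 and 0.34 in the clones and 0.39 in the pool (fitted 0.40 ± 0.12 SE, adjusted p = 0.225). Ndufb2, a subunit of the membrane arm, was more uneven, at 0.50, 0.12 and 0.84 in the clones and 0.37 in the pool (fitted 0.43 ± 0.15 SE, adjusted p = 0.278).

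Of the complex I subunits, 5 had a fitted value below 0, among them 1 core gene. Ndufv1, the core subunit that binds NADH and FMN, had log2 ratios of -0.51, -0.35 and -0.59 in the clones and -0.22 in the pool. All 4 samples were below 0, and the fitted value was -0.36 ± 0.10 (SE) with a limma adjusted p of 0.188. Ndufv3, a small subunit next to it, had -0.31, -0.19 and -0.39 in the clones and -0.20 in the pool (fitted -0.25 ± 0.09 SE, adjusted p = 0.296). Ndufa4, which later work assigns to complex IV despite its name, had a fitted value of -0.08. Ndufs1, the core subunit with more iron-sulfur clusters than any other, had a fitted value of 0.02 ± 0.12 (SE) and clone values on both sides of 0.

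All 8 complex I assembly factors tested had fitted values above 0, and 6 of the 8 were above 0 on all 4 arrays. These proteins help build the complex and are not part of the finished enzyme. Their median was 0.28, and after Ndufaf2 the highest was Ndufaf8 at 0.40, which was not called (adjusted p = 0.266). The lowest were Ndufaf3 at 0.06 and Ndufaf7 at 0.10. All 4 complex II assembly factors were also above 0, from Sdhaf3 at 0.00 and Sdhaf2 at 0.09 to Sdhaf1 at 0.16 and Sdhaf4 at 0.31, but only 1 of them was above 0 on all 4 arrays.

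Complex II, succinate dehydrogenase, is the only complex with no mitochondrially encoded subunit and also works in the TCA cycle. Its catalytic subunits had higher fitted values than its membrane anchors, a division not set in advance. Sdhb, the iron-sulfur subunit, had log2 ratios of 0.75, 0.27 and 0.72 in the clones and 0.38 in the pool (fitted 0.48 ± 0.13 SE, adjusted p = 0.185). Sdha, the flavoprotein, had 0.21, 0.49 and 0.25 in the clones and 0.38 in the pool (fitted 0.35 ± 0.10 SE, adjusted p = 0.209). Both were above 0 in all 4 samples, and the clone that was highest for Sdha was the lowest for Sdhb. The anchors Sdhc and Sdhd had fitted values of -0.07 and 0.12, and Sdhd had 0.08, -0.19 and -0.01 in the clones and 0.28 in the pool. None of the 4 genes passed the test.

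In complex III, the small subunits lay above the large ones, a division made after the values were seen. The 5 small subunits, Uqcrb, Uqcr11, Uqcr10, Uqcrq and Uqcrh, had fitted values from 0.22 to 0.48. The large core proteins Uqcrc1 and Uqcrc2 had -0.04 and -0.01, and Cyc1, which carries the haem of cytochrome c1, had 0.02. However, Uqcrc1 was above 0 in each clone (0.21, 0.08 and 0.20, or 0.16 with clones alone) and below 0 only in the pool (-0.25). Cyc1 was likewise above 0 in each clone (0.05, 0.12 and 0.22) and below 0 only in the pool (-0.09). No complex III gene was called. Uqcrb, a small subunit on the matrix side, had log2 ratios of 0.22, 0.61 and 0.35 in the clones and 0.57 in the pool (fitted 0.48 ± 0.11 SE, adjusted p = 0.154). It was above 0 in every sample, and its other probes gave 0.47 and 0.47.

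Uqcrfs1, the Rieske iron-sulfur protein of complex III, differed in sign between clones. Its log2 ratio was -0.50 in clone 1, -0.25 in clone 2, 0.58 in clone 3 and 0.28 in the pool. The fitted value of 0.11 ± 0.21 (SE) was smaller than its error. The clones spanned more for this gene than for any other member tested except Cox6a2.

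Complex IV held both the lowest member and a called gene. Cox6a2 encodes the form of subunit VIa known from heart and skeletal muscle, and Cox6a1 encodes the form found in most tissues. Cox6a2 had log2 ratios of -0.71, -1.97 and -2.69 in clones 1, 2 and 3 and -1.56 in the pool. It was below 0 in all 4 samples, but its clones spanned more than those of any other member. The fitted value was -1.67 ± 0.36 (SE), a fold of 3.19 lower, with a limma adjusted p of 0.142, so it was not called. Without clone 1, the sample closest to WT, it was called at -1.94 with an adjusted p of 0.035.

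Cox6a1 had log2 ratios of 0.17 and 0.12 in clones 1 and 2, 0.91 in clone 3 and 0.32 in the pool. Clone 3 stood above the rest, and the fitted value was 0.36 ± 0.17 (SE) with an adjusted p of 0.398. Cox7a2l, a protein related to Cox7a that takes part in joining complexes III and IV into supercomplexes, was below 0 in all samples, at -0.44, -0.71 and -0.36 in the clones and -0.09 in the pool. Its fitted value was -0.30 ± 0.11 (SE), with an adjusted p of 0.277, and its other probes gave -0.30 and -0.40. None of the genes of other tissue forms was called. Cox7a2, the widely expressed form, had 0.34 and Cox7a1, the muscle form, had 0.09, whereas Cox4i1 and its lung-type form Cox4i2 had 0.02 and 0.03. Cox4i1 was below 0 in each clone (-0.20, -0.09 and -0.03) and above 0 only in the pool (0.15). The clone values of Cox4i2 ran from -0.25 to 0.31. Cox6b1 and Cox6b2, a testis form, had 0.26 and 0.14, and Cox8a, the widely expressed form of subunit VIII, had 0.06.

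**Figure D2:**
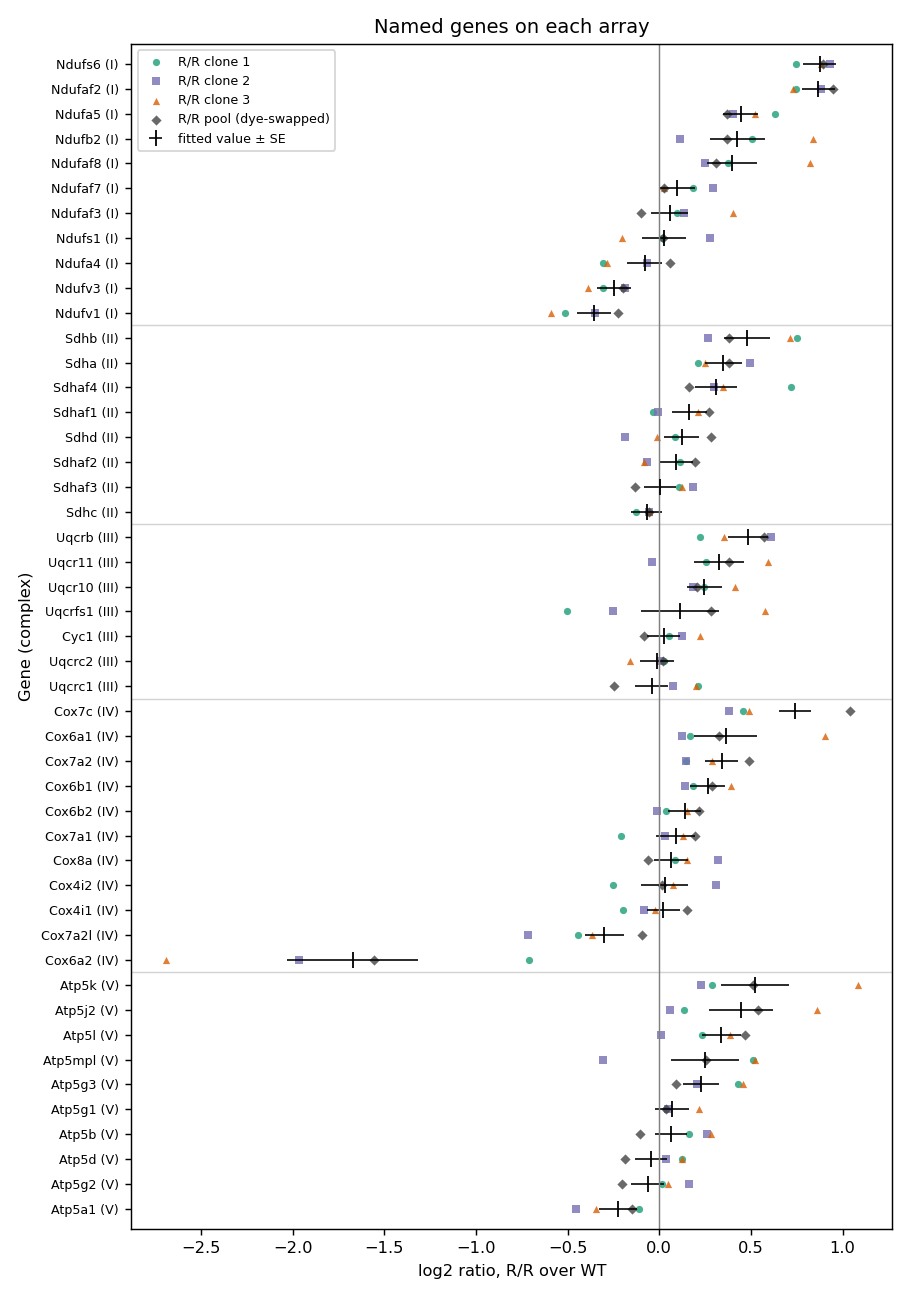
Log2 ratio of R/R over WT for the tested members named by rule, with a mark for each of the 4 samples and a cross for the fitted value with its SE. Ndufs4, Ndufb5, Uqcrq and Uqcrh, named after their values were seen, are not shown. The 4 samples of Ndufs6 lie between 0.75 and 0.93, those of Cox7c, on its brightest probe, are 0.38 to 0.49 in the clones and 1.04 in the pool, and those of Cox6a2 run from -2.69 to -0.71.

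Complex V, the ATP synthase, has a catalytic F1 head and a membrane part with its stalk. The 5 genes of the head had a median of 0.06 and the other 12 had 0.22, a division made after the values were seen. In the clones these medians were 0.11, 0.04 and 0.18 for the head and 0.11, 0.08 and 0.22 for the rest, and in the pool they were -0.11 and 0.26. The gap was therefore mainly in the pool, the dye-swapped array. Atp5b, the catalytic beta subunit, had a fitted value of 0.06, with 0.16, 0.26 and 0.28 in the clones and -0.11 in the pool. Atp5d, the delta subunit, had -0.05, with 0.13, 0.04 and 0.12 in the clones and -0.19 in the pool. Both were thus above 0 in each clone and below 0 only in the pool. Atp5a1, the alpha subunit, was below 0 in all 4 samples, at -0.11, -0.45 and -0.35 in the clones and -0.15 in the pool (fitted -0.23 ± 0.10 SE, adjusted p = 0.376).

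No gene of complex V was called. The highest was Atp5k, subunit e, which helps pair ATP synthases into dimers. Its log2 ratio was 0.29 and 0.23 in clones 1 and 2, 1.08 in clone 3 and 0.51 in the pool (fitted 0.52 ± 0.19 SE, adjusted p = 0.279). Atp5j2, subunit f, had 0.14 and 0.06 in clones 1 and 2, 0.86 in clone 3 and 0.54 in the pool (fitted 0.44 ± 0.17 SE, adjusted p = 0.316). In both genes clone 3 was far above clones 1 and 2, and a further probe of each gene gave similar fitted values, 0.52 for Atp5k and 0.50 for Atp5j2. Atp5l, subunit g, had a fitted value of 0.34. Atp5g1, Atp5g2 and Atp5g3 encode the same mature c-ring protein, and their fitted values were 0.07, -0.06 and 0.23.

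Agreement between probes could be measured for 23 members, those with several passing probes. The median spread between the probes of a gene was 0.09 on the log2 scale. The widest was 0.62, for Cox7c. Probes of Atp5g2, Ndufb5 and Sdhc had fitted values of opposite sign, all near 0.

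The clones differed from each other in the same direction across many members. Clone 3 was the highest clone for 54 of 94 members (57.4%), against 33.5% of all genes tested. Clone 2 was the lowest for 47 (50%), against 33.4%. The pool lay above all 3 clones for 34 members (36.2%), against 20.7% of all genes, and below them for 21 (22.3%), against 24.5%.

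The 3 called members all lie on chromosome 13, and other genes of that chromosome were mostly above 0 as well. The comparison by chromosome was made after the values were seen. The 460 other genes of chromosome 13 had a median of 0.10, 0.13 and 0.20 in the clones, 0.17 in the pool and 0.15 in the fit, and 69.8% were above 0. On the other chromosomes the corresponding fitted median lay between -0.12 and 0.06. The lowest, -0.12, was that of chromosome 18, which holds Atp5a1. The 7 members on chromosome 13 had a median of 0.48 and 6 of them were above 0 on all 4 arrays.

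**Figure D3:**
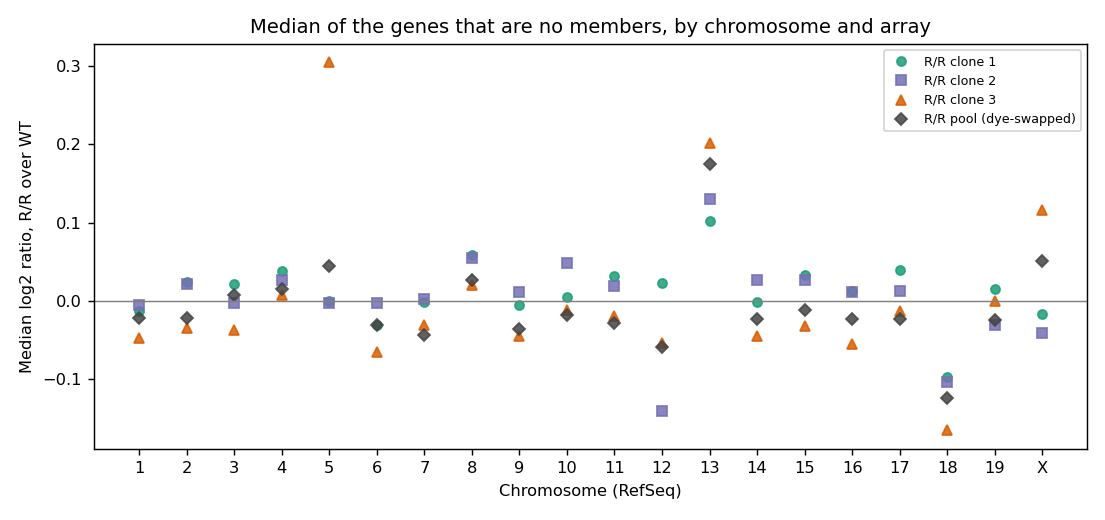
Median log2 ratio of R/R over WT for the genes of each chromosome that are not members, in each of the 4 samples. Chromosome 13 is above 0 in all samples (0.10 to 0.20), chromosome 18 is below 0 in all samples, and chromosome 5 stands out in clone 3 alone (0.30).

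Along chromosome 13 the values were not even. In RefSeq order its members are Uqcrfs1, Uqcrb, Ndufs6, Sdha, Cox7c, Ndufaf2 and Ndufs4. The 308 other genes before Ndufs6 had a fitted median of 0.10, and the 152 from Ndufs6 onward had 0.34. In the latter stretch the sample medians were 0.24, 0.49 and 0.19 in clones 1, 2 and 3 and 0.33 in the pool, and 77.6% of genes were above 0. Clone 2 was thus the highest clone there, as it also was for Uqcrb, Sdha, Ndufs4, Ndufs6 and Ndufaf2. For Cox7c it was the lowest clone on the brightest probe. On the gene's other bright probe clone 2 was the highest, with 0.67, 1.15 and 0.91 in clones 1, 2 and 3.

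The 20 nearest tested genes around each member give the local level. Their fitted median was 0.42 around Ndufs6, 0.42 around Sdha, 0.35 around Ndufaf2, 0.34 around Cox7c and 0.22 around Ndufs4, and it was 0.09 around Uqcrb and 0.03 around Uqcrfs1. The sets around Ndufs6 and Sdha share 8 genes. Sdha, at 0.35, did not exceed its neighbours, whereas each of the other members on this chromosome lay above its own. This held for the uncalled Uqcrb (0.48), Ndufs4 (0.40) and Uqcrfs1 (0.11) as well as for Ndufs6 (0.88), Ndufaf2 (0.87) and Cox7c (0.74). After each gene was centred on the median of its chromosome in each sample, Ndufs6 was still called (0.71) and Ndufaf2 and Cox7c were not (0.70 with adjusted p = 0.052, and 0.57 with adjusted p = 0.069). That fit held the 12290 tested genes with a chromosome, so the p-values were also adjusted over fewer genes. The other genes of chromosome 13 had a fitted median of 0.15, below the local level around each called gene. Centring on the whole chromosome therefore left part of the local level in place.

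**Figure D4:**
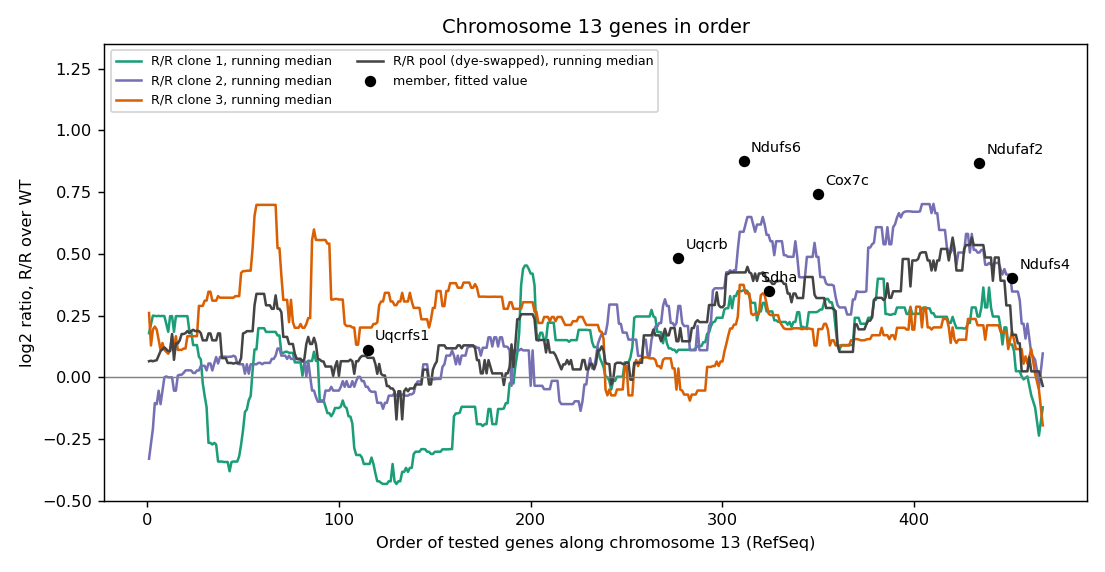
Running median of the log2 ratio of R/R over WT in each sample along the tested genes of chromosome 13, in RefSeq order, with the fitted values of its 7 members as points. From Ndufs6 onward the genes other than members have a median of 0.34, and Ndufs6, Ndufaf2 and Cox7c lie above all 4 running medians. The uncalled Uqcrb (0.48) and Ndufs4 (0.40) also exceed the median of their 20 nearest genes in every sample, and Sdha and Uqcrfs1 do not.

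Some other uneven members lay among genes that were uneven in the same clone, and some did not. On chromosome 5, the median of the 771 other genes was 0.30 in clone 3 and 0.00 in each of clones 1 and 2. The 3 members there, Cox6a1, Atp5j2 and Atp5k, had medians of 0.17, 0.12 and 0.91 in clones 1, 2 and 3. On chromosome 12, where the median of other genes was -0.14 in clone 2, Atp5mpl, a small protein bound to ATP synthase, had 0.51, -0.31 and 0.52 in the clones and 0.26 in the pool. Around Uqcrfs1, on chromosome 13, the 20 nearest genes had a median of -0.34 in clone 1 and 0.17 in clone 3. Ndufb2 and Ndufaf8 were highest in clone 3 (0.84 and 0.82), but the medians of the 20 genes nearest to them in that clone were -0.06 and 0.01. The same held for Uqcr11, at 0.59 in clone 3 beside 0.14 for its neighbours. The 20 genes nearest to Cox6a2 had a fitted median of 0.00.

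The median over the members was of the same size without these chromosomes. The 81 members off chromosomes 5, 12, 13 and 18 had a median of 0.16, with 69 above 0, and their sample medians were 0.11, 0.08 and 0.21 in the clones and 0.16 in the pool. The 87 members off chromosome 13 had a median of 0.16, with 74 above 0 and none called. At an unadjusted p under 0.05, limma placed 27 of those 87 higher and 4 lower, beside the same shares of all genes, 7.27% and 8.1%.

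Genes that make and supply mitochondria were compared from lists chosen apart from the members. Of all genes tested, 46.4% were above 0, 14.6% were above 0 on all 4 arrays and 0.15% were called higher. The mitochondrial ribosome, which translates the subunits encoded in mitochondrial DNA, had 77 genes tested, with a median of 0.20, 65 above 0 and 32 above 0 on all 4 arrays. Its only called gene was Mrpl36, a protein of the large ribosomal subunit, at 0.73, 1.00 and 0.90 in the clones and 0.98 in the pool (fitted 0.93 ± 0.10 SE, adjusted p = 0.041). Mrpl36 is the next RefSeq gene to Ndufs6 on chromosome 13. Mrps27 (0.57, adjusted p = 0.094) and Mrps36 (0.61, adjusted p = 0.105) lie on that chromosome too and were not called. Of the 27 genes of mitochondrial protein import, 23 were above 0 with a median of 0.21. None was called, and Tomm5, a small part of the outer membrane translocase, had 0.60 with an adjusted p of 0.107, and Timm17a, a part of the inner membrane translocase, had 0.43 with an adjusted p of 0.125.

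Other mitochondrial lists had lower medians. None of their genes was called, but only 0.524% of all genes tested were called in either direction, so lists this short would hold few calls or none. The 31 assembly factors outside the member names had a median of 0.03, with 21 above 0, from a list that includes Nubpl (-0.54, adjusted p = 0.108) and Uqcc2 (0.43, adjusted p = 0.128). The 23 genes of the TCA cycle and pyruvate dehydrogenase had a median of 0.02, with 12 above 0, and Dlst and Idh3a had -0.28 and 0.26. The 18 regulators of mitochondrial biogenesis had 0.01, with 11 above 0, and Pprc1, a coactivator, had 0.37 with an adjusted p of 0.165, and Mterf3 had 0.25. The 11 genes of coenzyme Q synthesis had a median of 0.04, with 9 above 0, and Coq8a and Coq10b had -0.32 and 0.15. Cytochrome c, carriers and the ATP synthase inhibitor had 0.12 over 5 genes, with 4 above 0, and included Cycs, cytochrome c, at 0.21 and Atpif1, the inhibitor, at 0.12.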

How the data were processed

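RNA was hybridised to 4 two-colour Agilent arrays on 1 slide. The deposited scanner files hold spot intensity per channel and a log10 ratio, written by Agilent Feature Extraction 11.5.1.1 per the file headers (11.5 in the submitters' processing notes). The deposited log2 value table was not used: read as feature numbers, its row numbers gave no correlation with the scanner values, so its rows stayed unnamed.

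In limma 3.58.1 (R 4.3.3), median intensities were corrected with normexp (offset 50) and loess within each array, with control spots at weight 0. From 210 to 265 outlier spots per array were left out. The filter asked for a signal well above background in either channel on 3 or more of the 4 arrays, and 18 probes lacking a value on an array were dropped. Probe accessions were named through RefSeq (GRCm38.p6), and 27656 of 55681 probes had 1 symbol. Of the coding genes with these name prefixes in RefSeq, Ndufb1, Ndufb4b and Ndufb4c matched no probe. The model held genotype and dye terms, with empirical Bayes moderation and Benjamini-Hochberg adjustment. It was tested on simulated data with 200 changed genes.

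Genes were named by rule: those called, the 3 highest and 3 lowest subunits of each complex, catalytic subunits, pairs of tissue forms, the 5 widest clone ranges, the 2 highest and 2 lowest assembly factors, and the 2 smallest p-values of each other list. Ndufs4, Ndufb5, Uqcrq, Uqcrh and Mrps36 were named after their values were seen. The members and lists were chosen with earlier results of these data known.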

Additional observations from a re-analysis of the deposited data

How the results depend on the processing

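The subunit median stayed above 0 under all 16 alternatives, from 0.14 to 0.18, as did the medians of complex I (0.14 to 0.19), complex III (0.17 to 0.27) and complex V (0.12 to 0.18). The complex II median was 0.19 with the scanner's own log ratios, 0.14 with clones alone, 0.19 without the dye term, 0.16 after centring on each chromosome (an alternative chosen after seeing the data) and 0.14 with assembly factors included. The complex IV median was 0.086 without the filter and 0.046 with clones alone. Members called higher numbered 0 with scanner log ratios, 1 with offset 16, 0 with median centring, 7 without the dye term, 1 after chromosome centring and 0 to 3 when a clone was left out (3 without clone 3). Members called lower numbered 2 without the dye term (Cox6a2 and Ndufv1) and 0 to 1 when a clone was left out. The cause of these changes was not tested. Over all genes, 30 were called higher and 75 lower, against 490 and 650 without the dye term and 2 and 28 with median centring. Cox7c also lost its call with the strict filter (adjusted p = 0.050), with the mean of its probes (0.062) and with clones 1 and 2 averaged (0.063). The comparison with the deposited log2 table was not run. No paired analysis was possible because the clones and the pool share only 1 replicate number, given by order. With 4 arrays and a pooled control, the number of arrays limits the precision.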
